A study of Homo sapiens with 12 samples.

Results

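Apoptosis regulators are the genes that start, carry out or restrain programmed cell death, and 35 of them were picked by symbol from the 19517 rows of the deposited expression table: BCL2 family members, caspases, inhibitor of apoptosis proteins, apoptosome components, death receptors and the receptors' adaptors. All 35 were found and all passed the filter on low counts. They were measured by RNA sequencing in HCC1937 and MDA-MB-231, human lines from triple-negative breast cancers (tumours without oestrogen or progesterone receptor and without HER2 amplification). There were 4 groups of 3 libraries: HCC1937 given an aqueous extract of the succulent plant Kalanchoe pinnata at 66 µg/mL for 72 h (libraries E31 to E33), HCC1937 controls at 72 h (E25 to E27), MDA-MB-231 given the same kind of extract at 140 µg/mL for 72 h (E7 to E9) and MDA-MB-231 controls at 72 h (E1 to E3). HCC1937 was kept in RPMI 1640 and MDA-MB-231 in DMEM, so cell line, medium and extract concentration cannot be told apart. Groups were taken from the sample titles, because the number in the cell line field of the labels counts up from sample to sample. The labels list all samples as wild type and do not say whether the libraries of a group came from separate cultures, so the p-values speak for the variation among the sequenced libraries only, and that variation could be purely technical.

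In the mitochondrial route to apoptosis, BH3-only proteins release or activate the effectors BAX and BAK1 (BOK is a related effector), which open the outer mitochondrial membrane, while BCL2, BCL2L1, BCL2L2, MCL1 and BCL2A1 hold them back. Cytochrome c (CYCS) then joins APAF1 in the apoptosome that activates caspase-9, and DIABLO, released beside it, blocks the inhibitor of apoptosis (IAP) proteins. In the death receptor route, FAS and the TRAIL receptors recruit FADD and caspase-8, which CFLAR restrains.

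Library totals ran from 16170545 to 31337431 counts, and 3 counts in a library are worth 0.0990 to 0.213 CPM (the count of a gene divided by its library's TMM-adjusted size), a floor that covers counting error only. Library E7 of the MDA-MB-231 extract group stood apart: mitochondrial transcripts took 10.7% of its counts, against 4.62% in E8 and 4.78% in E9, and its Spearman correlation with these across genes was 0.966 and 0.967, whereas every other pair of libraries of 1 group reached at least 0.997. Each member's log2 fold change between extract and control in MDA-MB-231 is therefore also given without E7. Mitochondrial transcripts took 2.76% to 2.87% of the counts in MDA-MB-231 controls, below E8 and E9 too, so leaving out E7 does not remove this difference. The labels call the cells of both lines epithelial. HCC1937 expressed all 10 epithelial markers examined, while CDH1, KRT5 and KRT14 were under 1 CPM in MDA-MB-231, in both treatment groups. The summed level of these markers was 14080 to 14170 CPM in HCC1937 extract libraries, against 5625 to 5841 CPM in HCC1937 controls, and 2080 to 3545 CPM in MDA-MB-231 extract libraries, against 954.5 to 1013 CPM in MDA-MB-231 controls. KRT7, KRT8 and KRT18 made up most of these sums. In HCC1937 EPCAM (log2 fold change -0.87) and CDH1 (-0.63) were called lower with extract, KRT19 did not pass and the others were called higher. In MDA-MB-231 KRT7, KRT8, KRT17 and KRT18 were called higher and CLDN4 lower (-0.82), and EPCAM and KRT19 did not pass. The 4 mesenchymal markers VIM, FN1, ZEB1 and CDH2 summed to 12.6 to 15.2 CPM with extract and 59.2 to 62.3 CPM in controls of HCC1937, and to 3608 to 5939 CPM with extract and 4169 to 4294 CPM in controls of MDA-MB-231. VIM made up most of the MDA-MB-231 sum and did not pass there, whereas FN1 (-1.93) and ZEB1 (-3.51) were called lower. VIM, FN1 and ZEB1 were all called lower in HCC1937. Of the 8 immune, endothelial and fibroblast markers, PTPRC and CD3E (leukocytes), COL1A2 and DCN (fibroblasts) were under 1 CPM in all 4 groups, and the endothelial genes PECAM1 and VWF in MDA-MB-231. CD68, a lysosomal gene used as a macrophage marker, was at 177 CPM with extract and 62.8 CPM in controls of HCC1937, and at 461 CPM with extract and 308 CPM in controls of MDA-MB-231. COL1A1, a collagen gene of fibroblasts, was at 6.62 CPM with extract and 18.8 CPM in controls of HCC1937, and at 5.78 CPM with extract and 21.3 CPM in controls of MDA-MB-231. In HCC1937 PECAM1 was at 8.94 CPM with extract and 12.7 CPM in controls, and VWF at 2.37 CPM with extract and 1.64 CPM in controls. The part of these shifts in the results below was not tested.

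The promoters of 4 genes are shown because their genes moved together: FADD and BOK rose in both lines, and BIRC6 and BIRC2 fell in both. The sequences are from RefSeq on GRCh38.p14 and run 5′ to 3′ on the plus strand over 300 bases around the annotated start, most of them upstream of it, FADD at chr11:70203046-70203345, BOK at chr2:241558495-241558794, BIRC6 at chr2:32356773-32357072 and BIRC2 at chr11:102346964-102347263. Capitals mark the GC box, GGGCGG, on either strand (CCGCCC as printed).
FADD: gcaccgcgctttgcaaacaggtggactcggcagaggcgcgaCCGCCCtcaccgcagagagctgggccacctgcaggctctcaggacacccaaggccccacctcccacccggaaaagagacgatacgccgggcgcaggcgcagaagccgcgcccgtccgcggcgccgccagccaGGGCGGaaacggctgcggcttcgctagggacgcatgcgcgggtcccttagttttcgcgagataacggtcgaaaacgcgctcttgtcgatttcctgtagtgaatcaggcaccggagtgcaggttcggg
BOK: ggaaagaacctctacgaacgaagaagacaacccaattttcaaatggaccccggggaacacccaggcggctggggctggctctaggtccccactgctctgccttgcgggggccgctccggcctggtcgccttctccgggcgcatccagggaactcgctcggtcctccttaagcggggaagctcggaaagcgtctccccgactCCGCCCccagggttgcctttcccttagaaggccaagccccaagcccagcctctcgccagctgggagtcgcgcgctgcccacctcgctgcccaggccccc
BIRC6: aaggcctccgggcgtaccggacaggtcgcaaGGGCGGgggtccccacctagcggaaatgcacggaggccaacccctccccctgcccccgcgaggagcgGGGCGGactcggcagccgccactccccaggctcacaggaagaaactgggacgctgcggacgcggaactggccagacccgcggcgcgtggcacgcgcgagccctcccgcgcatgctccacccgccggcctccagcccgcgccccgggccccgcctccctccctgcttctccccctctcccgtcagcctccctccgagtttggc
BIRC2: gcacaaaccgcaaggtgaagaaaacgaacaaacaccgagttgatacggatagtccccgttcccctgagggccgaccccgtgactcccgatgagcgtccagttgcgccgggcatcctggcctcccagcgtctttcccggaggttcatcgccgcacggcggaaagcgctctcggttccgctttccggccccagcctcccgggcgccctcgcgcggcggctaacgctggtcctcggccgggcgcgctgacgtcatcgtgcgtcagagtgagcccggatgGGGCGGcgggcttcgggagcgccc

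The GC box was present in all 4 windows, in those of genes that rose as well as of genes that fell, and in 22 of the 27 members with a promoter in the RefSeq table, against 45.00% of all 35116 promoters. The FADD and BIRC6 windows held it at 2 places each and the BOK and BIRC2 windows at 1 each. BIRC2 alone among the 27 also held the cyclic AMP response element TGACGTCA, found in 1.85% of all promoters on either strand. The motif TGANTCA, read by AP-1 factors, was in the windows of FADD, BBC3 and FAS and in 7.71% of all promoters. CCAAT was found in 12 of the 27 and in 34.6% of all promoters, and TATAAA in 3 of the 27 and in 11.5%. Such matches describe the letters of the window only. For each member the first listed promoter was read, and all members had passed the filter on low counts. The 35116 promoters were limited in neither way, so their shares are not a matched background.

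The extract was associated with altered levels of most members in both lines, with BAX, BAK1, BOK, BID, BAD, TNFRSF10A and FADD called higher and BMF, BIRC2, BIRC6 and FAS called lower in both lines under all 22 alternatives run. The share of all genes that kept a call in every alternative was not counted, so this is not read as particular to the members. In HCC1937, 15 members rose, 11 fell and 8 did not pass at an adjusted p under 0.05, and BCL2A1 had no reads. Of all 14133 genes tested, 71.8% passed (32.7% higher and 39.1% lower), so a change as such does not set the members apart. In MDA-MB-231, 15 members rose, 9 fell and 11 did not pass, beside 65.8% of all genes (33% higher and 32.8% lower). The median log2 fold change of the members was 0.21 in HCC1937, where that of all genes was -0.16, and 0.18 in MDA-MB-231, where that of all genes was 0. Without E7, 19 members rose and 14 fell in HCC1937, beside 81.4% of all genes passing (38.1% higher and 43.3% lower), and 17 rose and 11 fell in MDA-MB-231, beside 74.6% (37.3% higher and 37.2% lower). All 4 groups share an estimate of the spread in the model, so leaving out E7 can change HCC1937 calls too. Standard errors and p-values in HCC1937 therefore do not rest on the spread of its own libraries alone. With HCC1937 fitted on its own, 19 members rose and 12 fell, beside 5516 and 5747 of 12993 genes. Each value is a share of what its library holds, not an amount per cell. In such bulk samples fewer cells of a kind and less RNA per cell cannot be told apart.

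**Figure D1:**
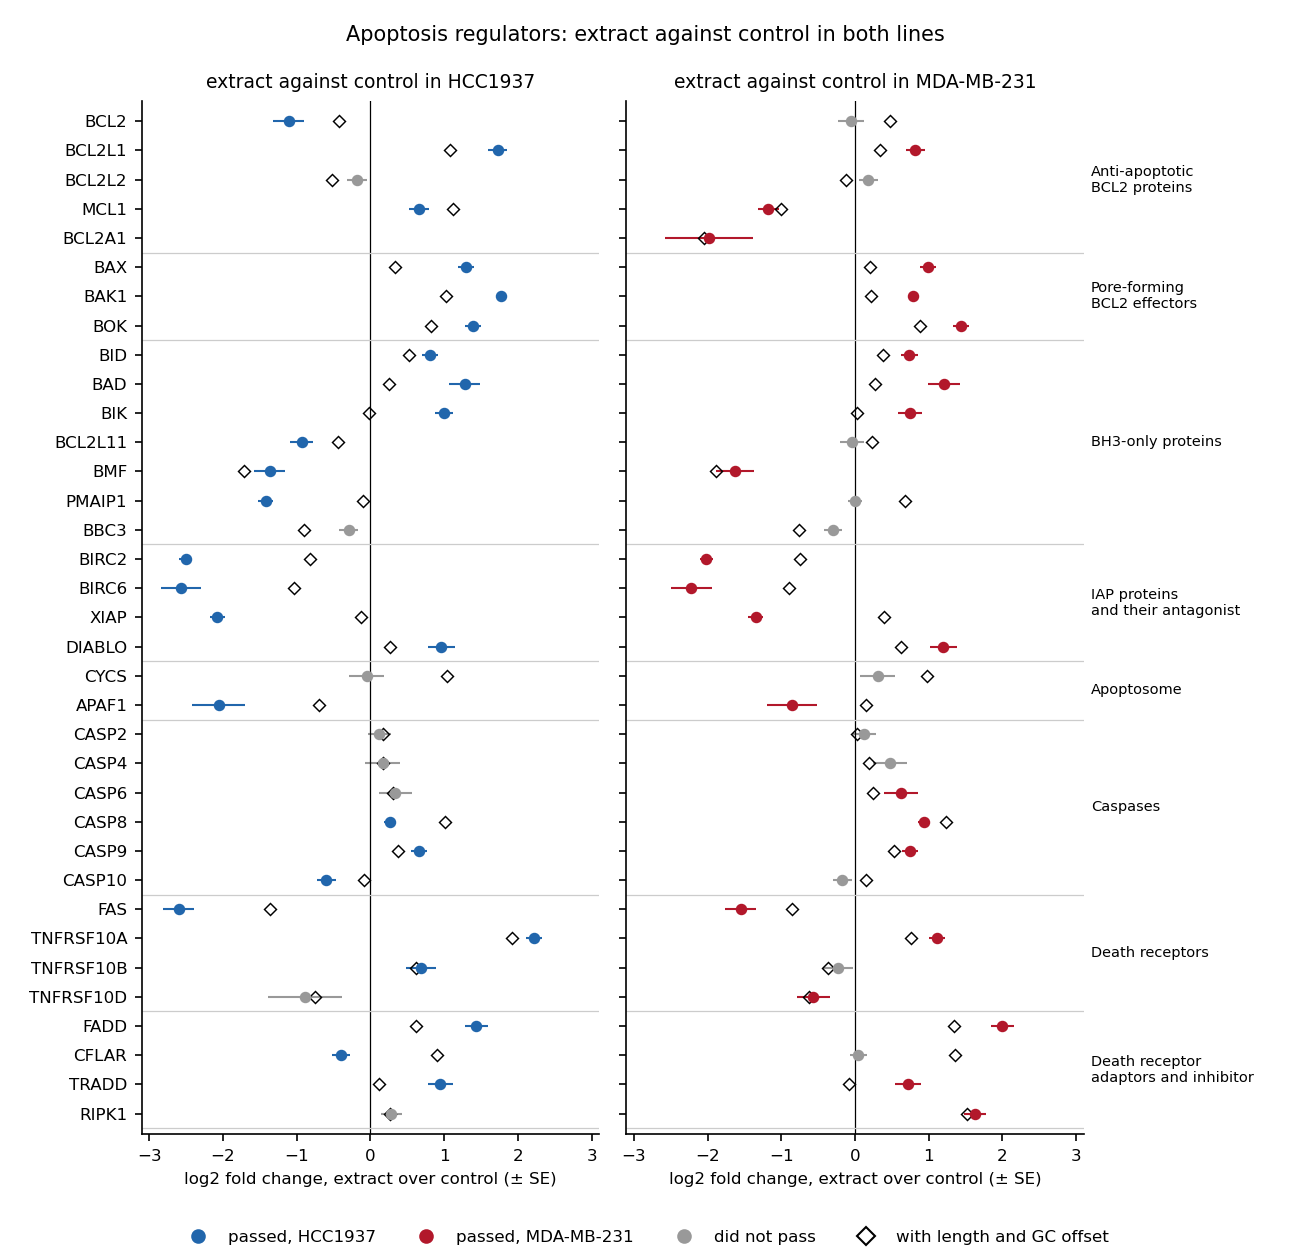
Log2 fold change, extract over control, of the apoptosis regulators in HCC1937 (left) and MDA-MB-231 (right), grouped by role, with standard errors as bars. Coloured points passed an adjusted p under 0.05, grey points did not, and open diamonds are the values after correction for transcript length and GC content; BIRC2 stood at -2.51 and -2.02, or -0.82 and -0.74 after correction, and BCL2A1 has no value in HCC1937.

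The calls of the lines overlapped, but the share of all genes called alike in both was not counted. The overlap is therefore not read as particular to the members. Of the 15 members that rose in each line, 13 were the same genes: BCL2L1, BAX, BAK1, BOK, BID, BAD, BIK, DIABLO, CASP8, CASP9, TNFRSF10A, FADD and TRADD (CASP8 in HCC1937 not with library totals as the scaling, where it was at -0.19). BMF, BIRC2, BIRC6, XIAP, APAF1 and FAS fell in both, which is 6 of the 11 that fell in HCC1937 and 6 of the 9 in MDA-MB-231. MCL1 rose in HCC1937 and fell in MDA-MB-231. In HCC1937, TNFRSF10B rose and BCL2, BCL2L11, PMAIP1, CASP10 and CFLAR fell without passing in MDA-MB-231, where CASP6 and RIPK1 rose and BCL2A1 and TNFRSF10D fell without passing in HCC1937. BCL2L2, BBC3, CYCS, CASP2 and CASP4 passed in neither line. The extract and control libraries did not overlap for 31 of the 35 members in HCC1937, beside 82.1% of all genes, and for 24 of the 35 in MDA-MB-231, beside 67.6%.

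Transcript length and GC content moved with these fold changes. The members that rose in HCC1937 had longest coding transcripts with a median of 2495 nt and 56.03% GC, whereas those that fell had 5928 nt and 43.1%. In MDA-MB-231 the medians were 2257 nt and 56.03% for members that rose and 4066 nt and 41.7% for those that fell. Across the 34 members with a value in HCC1937, Spearman's rho of the fold change with GC content was 0.736 and with length -0.584, as a description, and across all 14054 genes with an annotation 0.552 and -0.373. In MDA-MB-231 the values were 0.611 and -0.426 across 35 members, and 0.470 and -0.390 across all genes. The points share libraries and genes are not independent replicates. A fit with an offset per library for length and GC content brought the values across all genes to 0.012 and -0.001 in HCC1937 and to -0.005 and 0.010 in MDA-MB-231. Values near 0 across all genes follow from the way the offset is made, since it is fitted to these genes. Across the members the offset left 0.220 and -0.194 in HCC1937, and 0.054 and 0.066 in MDA-MB-231. Under it 15 members rose and 8 fell in HCC1937, beside 67.7% of all genes passing (34.9% higher and 32.8% lower), and 17 rose and 9 fell in MDA-MB-231, beside 65.7% (34.9% higher and 30.8% lower). It kept 12 of the 15 rises in each line, 6 of the 11 falls in HCC1937 and 7 of the 9 in MDA-MB-231. XIAP was higher with this offset in MDA-MB-231 and CFLAR in HCC1937, against lower without it, both past the threshold. Whether GC content and length themselves account for a fold change was not tested, and the corrected value is given for each member below.

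**Figure D2:**
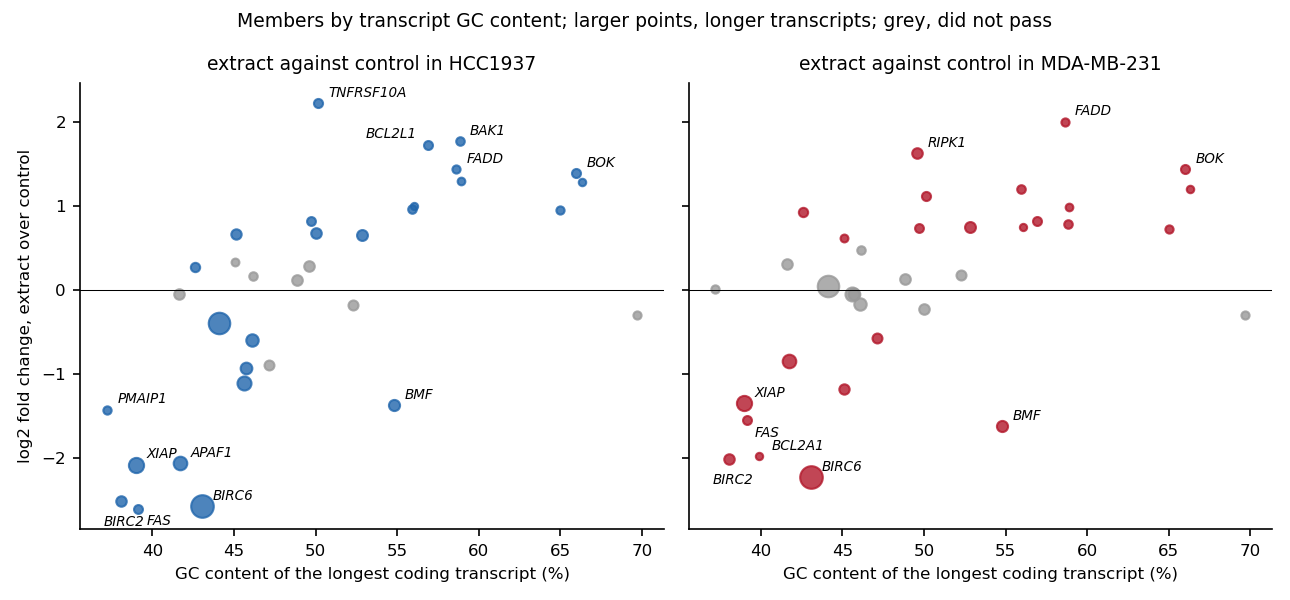
Log2 fold change of each member, extract over control, against the GC content of its longest coding transcript in HCC1937 (left) and MDA-MB-231 (right). Points grow with transcript length, and coloured points passed; BIRC2 and FAS lie at the low-GC end with falls in both lines, while FADD and BOK lie at higher GC content with rises.

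All 3 pore-forming effectors rose in both lines, and did so in all 22 alternatives run, beside 32.7% of all genes called higher in HCC1937 and 33% in MDA-MB-231. BAX and BAK1, which form the pores through which mitochondria release cytochrome c, both had higher levels with extract, as had BOK, a related effector. BAX was at 153, 147 and 164 CPM in HCC1937 extract libraries, against 68.4, 60.1 and 61.1 CPM in HCC1937 controls. In MDA-MB-231, BAX was at 169, 136 and 131 CPM with extract, against 78.00, 71.03 and 69.8 CPM in controls. BAX had a log2 fold change of 1.29 ± 0.11 in HCC1937 (edgeR adjusted p = 5.81e-07) and of 0.99 ± 0.11 in MDA-MB-231 (edgeR adjusted p = 7.30e-06), or 0.87 without E7. Every extract library was above every control library of its line, and E7 was the highest MDA-MB-231 library. BAK1 reached 123, 121 and 123 CPM in HCC1937 extract libraries, against 37.4, 34.6 and 35.9 CPM in HCC1937 controls. In MDA-MB-231, BAK1 was at 109.5, 115 and 113 CPM with extract, against 63.7, 66.5 and 65.9 CPM in controls. BAK1 had a log2 fold change of 1.77 ± 0.07 in HCC1937 (edgeR adjusted p = 2.46e-09) and of 0.78 ± 0.07 in MDA-MB-231 (edgeR adjusted p = 9.83e-07), or 0.81 without E7. BAK1 thus stood apart from its controls in both lines, with extract levels that differed little between the lines. With the length and GC offset, BAX was at 0.33 in HCC1937 and 0.21 in MDA-MB-231 (edgeR adjusted p = 0.00319 and 0.0439), and BAK1 at 1.03 and 0.21 (edgeR adjusted p = 2.48e-08 and 0.00928).

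BOK stood at 36.8, 32.2 and 35.5 CPM in HCC1937 extract libraries, against 12.5, 13.4 and 13.9 CPM in HCC1937 controls. In MDA-MB-231, BOK was at 106, 86.5 and 86.6 CPM with extract, against 37.4, 32.9 and 32.6 CPM in controls. BOK had a log2 fold change of 1.39 ± 0.11 in HCC1937 (edgeR adjusted p = 2.86e-07) and of 1.44 ± 0.11 in MDA-MB-231 (edgeR adjusted p = 2.61e-07), or 1.34 without E7. The groups did not overlap in either line. BOK kept log2 fold changes of 0.82 and 0.88 with the length and GC offset (edgeR adjusted p = 3.55e-06 and 1.42e-06). Per length of transcript, BAX was the most abundant of these effectors in every group, with 114 CPM per kb in HCC1937 extract libraries and 46.6 in HCC1937 controls, and 107 in MDA-MB-231 extract libraries and 53.7 in MDA-MB-231 controls.

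The anti-apoptotic BCL2 genes moved in different directions. BCL2L1, which encodes the inhibitor BCL-XL, rose in both lines. MCL1, a short-lived protein that neutralises BAK1 and BH3-only proteins, rose in HCC1937 and fell in MDA-MB-231. BCL2L1 was measured at 329.8, 318 and 319 CPM in HCC1937 extract libraries, against 98.1, 93.5 and 101 CPM in HCC1937 controls. In MDA-MB-231, BCL2L1 was at 304, 448 and 444 CPM with extract, against 233, 227 and 218 CPM in controls. BCL2L1 had a log2 fold change of 1.73 ± 0.13 in HCC1937 (edgeR adjusted p = 2.34e-07) and of 0.82 ± 0.13 in MDA-MB-231 (edgeR adjusted p = 0.000131), or 0.99 without E7. No extract library overlapped with a control library, and E7 was the lowest of the MDA-MB-231 extract libraries. Corrected by the length and GC offset, BCL2L1 was at 1.08 and 0.34 (edgeR adjusted p = 1.75e-06 and 0.0119), and with an offset from transcripts of median length it missed the threshold in MDA-MB-231, at 0.33 (edgeR adjusted p = 0.0919).

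MCL1 had 379.9, 389 and 377 CPM in HCC1937 extract libraries, against 236, 249 and 241 CPM in HCC1937 controls. In MDA-MB-231, MCL1 was at 404, 634 and 620.1 CPM with extract, against 1217, 1271 and 1262 CPM in controls. MCL1 had a log2 fold change of 0.66 ± 0.14 in HCC1937 (edgeR adjusted p = 0.00120) and of -1.18 ± 0.14 in MDA-MB-231 (edgeR adjusted p = 1.71e-05), or -0.99 without E7. MCL1 separated the groups in both lines, in opposite directions. Its value in HCC1937 depends on the scaling, since it was 0.21 with library totals alone (edgeR adjusted p = 0.382), a scaling that put the median of all genes at -0.61 in HCC1937. With the length and GC offset MCL1 was at 1.12 in HCC1937 and -1.01 in MDA-MB-231 (edgeR adjusted p = 1.59e-06 and 3.86e-06). An offset from transcripts of median length gave 1.98 and -0.26 (edgeR adjusted p = 6.31e-09 and 0.0137).

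BCL2 itself, the founding member of the family, was a minor transcript in both lines. BCL2 amounted to 1.78, 1.13 and 1.47 CPM in HCC1937 extract libraries, against 3.00, 2.94 and 3.52 CPM in HCC1937 controls. In MDA-MB-231, BCL2 was at 9.10, 11.1 and 11.3 CPM with extract, against 8.78, 11.4 and 12.6 CPM in controls. BCL2 had a log2 fold change of -1.11 ± 0.21 in HCC1937 (edgeR adjusted p = 0.000472) and of -0.05 ± 0.17 in MDA-MB-231 (edgeR adjusted p = 0.813), or 0.04 without E7. It fell in HCC1937 with no overlap between the groups, while in MDA-MB-231 the groups overlapped. The HCC1937 value was -0.42 with the length and GC offset and 0.36 with the offset from transcripts of median length (edgeR adjusted p = 0.0869 and 0.115). In MDA-MB-231 BCL2 was called higher with both, at 0.48 and 1.05 (edgeR adjusted p = 0.0201 and 9.14e-05). BCL2A1, an NF-kB-responsive member of the family, had no reads in any HCC1937 library. In MDA-MB-231 it was at 0.569, 0.192 and 0.0895 CPM with extract, against 1.18, 0.716 and 1.08 CPM in controls, with a log2 fold change of -1.97 ± 0.60 (edgeR adjusted p = 0.0204) or -2.75 without E7. These levels rest on 15 reads with extract and 60 in controls, and the call was lost without E1, E3, E8 or E9. BCL2A1 passed the filter on low counts through the MDA-MB-231 controls, where it was highest. Its fall is therefore not independent of that filter. The length and GC offset gave -2.05 (edgeR adjusted p = 0.00517). BCL2L2, which encodes BCL-W, was at -0.18 ± 0.13 in HCC1937 and 0.18 ± 0.13 in MDA-MB-231 on the log2 scale and passed in neither line (edgeR adjusted p = 0.225 and 0.243), or 0.35 without E7 in MDA-MB-231, which passed (edgeR adjusted p = 5.30e-06). With the offset BCL2L2 fell in HCC1937, at -0.52, and was at -0.13 in MDA-MB-231 (edgeR adjusted p = 3.63e-05 and 0.156), and without E7 it also passed in HCC1937, at -0.16 (edgeR adjusted p = 0.00311).

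Per kb of the longest coding transcript, BCL2L1 and MCL1 together made up most of the anti-apoptotic transcripts. BCL2L1 took 51.2 ± 0.654% of the summed CPM per kb of these genes in HCC1937 extract libraries and 30.6 ± 1.37% in HCC1937 controls, and 49.7 ± 0.684% in MDA-MB-231 extract libraries and 20.7 ± 0.821% in MDA-MB-231 controls (SD, n = 3). MCL1 took 40.4 ± 0.746% and 50.4 ± 0.793% in the same HCC1937 groups, and 45.5 ± 0.889% and 75.96 ± 0.895% in the same MDA-MB-231 groups. By this measure MCL1 was the larger part in controls of both lines and BCL2L1 in extract libraries of both lines. The order depends on the length used. Per kb of the coding transcript of median length (914 nt for BCL2L1 and 3626 nt for MCL1), BCL2L1 was also above MCL1 in HCC1937 controls, at 107 and 66.7 CPM per kb, and by counts MCL1 was above BCL2L1 in all 12 libraries.

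Among the BH3-only genes, BID, BAD and BIK rose in both lines (BIK not with the length and GC offset) and BMF fell in both. BID links caspase-8 to the mitochondria and BAD binds BCL2L1. BAD came to 114, 109.9 and 109.5 CPM in HCC1937 extract libraries, against 45.1, 45.1 and 47.1 CPM in HCC1937 controls. In MDA-MB-231, BAD was at 103, 53.8 and 50.5 CPM with extract, against 30.2, 31.4 and 28.2 CPM in controls. BAD had a log2 fold change of 1.28 ± 0.21 in HCC1937 (edgeR adjusted p = 0.000199) and of 1.20 ± 0.22 in MDA-MB-231 (edgeR adjusted p = 0.000425), or 0.81 without E7. E7 was the highest MDA-MB-231 library for BAD, and extract and control libraries did not overlap in either line. Under that offset for length and GC content BAD was at 0.25 and 0.28 (edgeR adjusted p = 0.0109 and 0.00765). BID had a log2 fold change of 0.81 ± 0.11 in HCC1937 (edgeR adjusted p = 3.25e-05) and of 0.74 ± 0.11 in MDA-MB-231 (edgeR adjusted p = 0.000117), or 0.58 without E7. BIK had a log2 fold change of 1.00 ± 0.13 in HCC1937 (edgeR adjusted p = 2.07e-05) and of 0.75 ± 0.16 in MDA-MB-231 (edgeR adjusted p = 0.00152), or 0.71 without E7. BIK was at -0.01 and 0.02 with that offset and no longer passed (edgeR adjusted p = 0.953 and 0.952), whereas BID was at 0.52 and 0.37 and passed (edgeR adjusted p = 7.68e-05 and 0.00183).

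BMF, which is held at the cytoskeleton in healthy cells, was the BH3-only gene that fell in both lines. BMF was found at 10.9, 8.56 and 10.4 CPM in HCC1937 extract libraries, against 24.9, 27.1 and 25.1 CPM in HCC1937 controls. In MDA-MB-231, BMF was at 0.925, 2.46 and 3.04 CPM with extract, against 6.80, 7.05 and 6.93 CPM in controls. BMF had a log2 fold change of -1.37 ± 0.21 in HCC1937 (edgeR adjusted p = 0.000119) and of -1.62 ± 0.26 in MDA-MB-231 (edgeR adjusted p = 0.000163), or -1.33 without E7. Extract and control libraries did not overlap, and E7 was the lowest MDA-MB-231 library. After the length and GC offset BMF was lower still, at -1.71 and -1.89 (edgeR adjusted p = 3.33e-07 and 1.34e-06). BCL2L11, which encodes BIM, fell in HCC1937 at -0.93 ± 0.15 (edgeR adjusted p = 0.000163) and was at -0.05 ± 0.16 in MDA-MB-231 (edgeR adjusted p = 0.828), or 0.13 without E7. With the offset BCL2L11 was at -0.43 in HCC1937, still lower, and at 0.23 in MDA-MB-231 (edgeR adjusted p = 0.00333 and 0.117).

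PMAIP1 and BBC3 encode NOXA and PUMA, BH3-only proteins known as targets of p53. PMAIP1 fell in HCC1937 and BBC3 passed in neither line. PMAIP1 measured 7.73, 7.03 and 7.24 CPM in HCC1937 extract libraries, against 19.2, 18.7 and 21.2 CPM in HCC1937 controls. In MDA-MB-231, PMAIP1 was at 181, 147 and 146 CPM with extract, against 154, 154 and 164 CPM in controls. PMAIP1 had a log2 fold change of -1.42 ± 0.10 in HCC1937 (edgeR adjusted p = 1.86e-07) and of 0.01 ± 0.10 in MDA-MB-231 (edgeR adjusted p = 0.981), or -0.10 without E7. Its groups were far apart in HCC1937 and overlapped in MDA-MB-231. The HCC1937 value was -0.10 with the length and GC offset (edgeR adjusted p = 0.344) and -0.93 with the offset from transcripts of median length (edgeR adjusted p = 4.54e-07). In MDA-MB-231 PMAIP1 was called higher with both offsets, at 0.68 and 0.18 (edgeR adjusted p = 6.91e-06 and 0.0332). BBC3 lay at 5.55, 5.79 and 6.90 CPM in HCC1937 extract libraries, against 7.53, 7.49 and 7.38 CPM in HCC1937 controls. In MDA-MB-231, BBC3 was at 18.1, 21.98 and 24.3 CPM with extract, against 27.9, 27.6 and 23.8 CPM in controls. BBC3 had a log2 fold change of -0.30 ± 0.13 in HCC1937 (edgeR adjusted p = 0.0633) and of -0.29 ± 0.12 in MDA-MB-231 (edgeR adjusted p = 0.0531), or -0.18 without E7. In HCC1937 the groups lay side by side without overlap, and in MDA-MB-231 they overlapped. Once length and GC content were offset, BBC3 fell in both, at -0.90 and -0.76 (edgeR adjusted p = 0.00221 and 0.00346).

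The 3 IAP genes fell in both lines, XIAP not with the length and GC offset, and DIABLO, the mitochondrial protein that displaces IAPs from caspases, rose in both. Of all genes, 39.1% were called lower in HCC1937 and 32.8% in MDA-MB-231. BIRC2 encodes a ubiquitin ligase of the TNF receptor complexes. BIRC2 stood at 6.56, 6.11 and 5.62 CPM in HCC1937 extract libraries, against 32.5, 35.3 and 36.1 CPM in HCC1937 controls. In MDA-MB-231, BIRC2 was at 23.97, 21.4 and 22.2 CPM with extract, against 89.05, 92.3 and 91.4 CPM in controls. BIRC2 had a log2 fold change of -2.51 ± 0.09 in HCC1937 (edgeR adjusted p = 1.84e-09) and of -2.02 ± 0.09 in MDA-MB-231 (edgeR adjusted p = 4.35e-09), or -2.05 without E7. The groups were separated by a wide margin in both lines. The length and GC offset gave a smaller fall, at -0.82 and -0.74 (edgeR adjusted p = 4.95e-07 and 5.67e-07), and both offsets kept the call. BIRC6 counted 20.04, 19.05 and 18.5 CPM in HCC1937 extract libraries, against 108, 126 and 108 CPM in HCC1937 controls. In MDA-MB-231, BIRC6 was at 6.19, 16.5 and 17.8 CPM with extract, against 57.2, 68.4 and 66.9 CPM in controls. BIRC6 had a log2 fold change of -2.57 ± 0.28 in HCC1937 (edgeR adjusted p = 5.10e-06) and of -2.22 ± 0.28 in MDA-MB-231 (edgeR adjusted p = 2.36e-05), or -1.89 without E7. BIRC6, a very large IAP with ubiquitin-conjugating activity, was lowest in E7 among the MDA-MB-231 libraries, and the groups did not overlap. Its longest coding transcript of 15703 nt is the longest of the members, and with the length and GC offset it was at -1.04 and -0.90 (edgeR adjusted p = 9.09e-06 and 5.02e-05).

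XIAP, the IAP that inhibits caspases directly, had lower levels with extract in both lines. XIAP fell to 20.9, 20.2 and 20.8 CPM in HCC1937 extract libraries, against 83.5, 89.3 and 88.1 CPM in HCC1937 controls. In MDA-MB-231, XIAP was at 10.2, 12.2 and 12.9 CPM with extract, against 28.3, 32.8 and 29.2 CPM in controls. XIAP had a log2 fold change of -2.07 ± 0.10 in HCC1937 (edgeR adjusted p = 6.44e-09) and of -1.35 ± 0.10 in MDA-MB-231 (edgeR adjusted p = 2.71e-07), or -1.26 without E7. No groups overlapped. The call in HCC1937 and the direction in MDA-MB-231 changed with the length and GC offset. With it XIAP was at -0.13 in HCC1937 and did not pass (edgeR adjusted p = 0.0867). In MDA-MB-231 it was then at 0.40, higher with extract (edgeR adjusted p = 0.000303). DIABLO rose to 52.6, 49.4 and 54.1 CPM in HCC1937 extract libraries, against 28.2, 26.3 and 25.7 CPM in HCC1937 controls. In MDA-MB-231, DIABLO was at 133, 75.6 and 77.7 CPM with extract, against 37.9, 42.4 and 44.1 CPM in controls. DIABLO had a log2 fold change of 0.96 ± 0.18 in HCC1937 (edgeR adjusted p = 0.000525) and of 1.20 ± 0.18 in MDA-MB-231 (edgeR adjusted p = 0.000118), or 0.89 without E7. E7 was the highest MDA-MB-231 library for DIABLO by a wide margin, and the groups did not overlap. With the offset DIABLO was at 0.27 in HCC1937 and did not pass, and at 0.63 in MDA-MB-231 and did (edgeR adjusted p = 0.138 and 0.00258).

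Of the apoptosome genes, APAF1, the scaffold that binds cytochrome c, fell in both lines, in MDA-MB-231 not with the length and GC offset, and CYCS passed in neither without that offset and rose in both with it. APAF1 was reduced to 5.79, 5.59 and 6.04 CPM in HCC1937 extract libraries, against 24.7, 24.2 and 23.7 CPM in HCC1937 controls. In MDA-MB-231, APAF1 was at 5.83, 21.5 and 23.9 CPM with extract, against 33.2, 31.4 and 29.2 CPM in controls. APAF1 had a log2 fold change of -2.06 ± 0.36 in HCC1937 (edgeR adjusted p = 0.000276) and of -0.85 ± 0.34 in MDA-MB-231 (edgeR adjusted p = 0.0440), or -0.46 without E7. The groups did not overlap, and E7 was the lowest MDA-MB-231 library for APAF1. In MDA-MB-231 the call was lost when any 1 library other than an extract library of that line was left out, and with the length and GC offset APAF1 was at -0.69 in HCC1937 (edgeR adjusted p = 0.0419) and 0.15 in MDA-MB-231 (edgeR adjusted p = 0.639). CYCS, whose reads are uncertain because 40 processed pseudogenes of it are annotated, was at -0.05 ± 0.23 in HCC1937 and 0.31 ± 0.24 in MDA-MB-231 (edgeR adjusted p = 0.861 and 0.275), or -0.15 without E7 (edgeR adjusted p = 0.00378), which passed in the opposite direction. With the offset CYCS was at 1.04 in HCC1937 and 0.98 in MDA-MB-231 (edgeR adjusted p = 0.00209 and 0.00342).

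The initiator caspases CASP8 and CASP9 rose in both lines, CASP8 not in HCC1937 when libraries were scaled by their totals alone. CASP8 starts the death receptor route and CASP9 is activated in the apoptosome. CASP8 was recorded at 46.7, 43.5 and 43.8 CPM in HCC1937 extract libraries, against 38.3, 37.4 and 35.6 CPM in HCC1937 controls. In MDA-MB-231, CASP8 was at 53.7, 50.3 and 49.8 CPM with extract, against 25.3, 26.8 and 28.5 CPM in controls. CASP8 had a log2 fold change of 0.27 ± 0.08 in HCC1937 (edgeR adjusted p = 0.00864) and of 0.93 ± 0.08 in MDA-MB-231 (edgeR adjusted p = 9.01e-07), or 0.90 without E7. Groups did not overlap in either line, and the margin was narrower in HCC1937. There the direction depends on the scaling: with library totals alone CASP8 was at -0.19 in HCC1937 (edgeR adjusted p = 0.106). Corrected for length and GC content it was at 1.00 and 1.24 (edgeR adjusted p = 6.57e-08 and 1.41e-08). CASP9 gave 24.6, 26.96 and 25.8 CPM in HCC1937 extract libraries, against 16.5, 17.7 and 15.02 CPM in HCC1937 controls. In MDA-MB-231, CASP9 was at 12.9, 17.1 and 15.1 CPM with extract, against 8.83, 9.31 and 8.95 CPM in controls. CASP9 had a log2 fold change of 0.65 ± 0.11 in HCC1937 (edgeR adjusted p = 0.000175) and of 0.74 ± 0.11 in MDA-MB-231 (edgeR adjusted p = 0.000122), or 0.85 without E7. CASP9 was higher in every extract library than in every control library of its line. With the length and GC offset it was at 0.37 and 0.53 (edgeR adjusted p = 0.00256 and 0.000443), and with the offset from transcripts of median length at 0.09 and 0.26, neither of which passed (edgeR adjusted p = 0.581 and 0.126).

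The other caspases moved less. CASP10, a close relative of caspase-8, fell in HCC1937 at -0.60 ± 0.13 (edgeR adjusted p = 0.00111) and was at -0.17 ± 0.13 in MDA-MB-231 (edgeR adjusted p = 0.262), or -0.05 without E7. The CASP10 call was lost with the length and GC offset, at -0.09 in HCC1937, and the value in MDA-MB-231 was 0.15 (edgeR adjusted p = 0.406 and 0.195). The effector caspase gene CASP6 rose in MDA-MB-231 at 0.62 ± 0.23 (edgeR adjusted p = 0.0323), or 0.44 without E7, a call lost without E1 or E2, and was at 0.34 ± 0.22 in HCC1937 (edgeR adjusted p = 0.196). With the offset CASP6 passed in neither line, at 0.31 in HCC1937 and 0.25 in MDA-MB-231 (edgeR adjusted p = 0.169 and 0.290). CASP2, an initiator caspase, was at 0.12 ± 0.15 in HCC1937 and 0.13 ± 0.16 in MDA-MB-231 (edgeR adjusted p = 0.490 and 0.510), or 0.32 without E7. CASP4, the caspase that senses intracellular lipopolysaccharide, was at 0.16 ± 0.23 and 0.48 ± 0.23 (edgeR adjusted p = 0.544 and 0.0948), or 0.02 without E7. CASP4 was the most abundant of the 6 caspase members per length in all 4 groups, with 66.95 CPM per kb in HCC1937 extract libraries and 59.8 in HCC1937 controls, and 43.6 in MDA-MB-231 extract libraries and 31.3 in MDA-MB-231 controls. Without E7, CASP2 also passed in both lines and CASP4 in HCC1937 (edgeR adjusted p = 0.0293, 0.00192 and 8.90e-05), as did CASP6 in HCC1937 (edgeR adjusted p = 0.0444). The offset left CASP2 at 0.17 in HCC1937 and 0.03 in MDA-MB-231, and CASP4 at 0.17 and 0.20, none of which passed (edgeR adjusted p = 0.133, 0.861, 0.340 and 0.299).

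The death receptor genes went different ways. TNFRSF10A, one of the receptors that carry the death signal of the ligand TRAIL, rose in both lines, and FAS, the receptor of FAS ligand, fell in both. TNFRSF10A climbed to 70.2, 71.3 and 70.1 CPM in HCC1937 extract libraries, against 15.1, 15.5 and 14.8 CPM in HCC1937 controls. In MDA-MB-231, TNFRSF10A was at 32.2, 40.3 and 42.9 CPM with extract, against 18.4, 18.6 and 16.4 CPM in controls. TNFRSF10A had a log2 fold change of 2.22 ± 0.11 in HCC1937 (edgeR adjusted p = 8.05e-09) and of 1.11 ± 0.11 in MDA-MB-231 (edgeR adjusted p = 2.37e-06), or 1.23 without E7. In both lines the extract libraries lay well above the controls, and HCC1937 extract libraries were the highest of all. The rise held with the length and GC offset, at 1.92 and 0.76 (edgeR adjusted p = 7.04e-09 and 2.52e-05). FAS dropped to 1.70, 2.05 and 2.90 CPM in HCC1937 extract libraries, against 13.6, 13.3 and 13.6 CPM in HCC1937 controls. In MDA-MB-231, FAS was at 3.20, 2.88 and 1.83 CPM with extract, against 7.15, 7.71 and 8.06 CPM in controls. FAS had a log2 fold change of -2.60 ± 0.21 in HCC1937 (edgeR adjusted p = 3.98e-07) and of -1.55 ± 0.21 in MDA-MB-231 (edgeR adjusted p = 5.17e-05), or -1.67 without E7. FAS was low in all 6 extract libraries, and they did not overlap with controls. After correction for length and GC content FAS was at -1.36 and -0.85 (edgeR adjusted p = 3.03e-05 and 0.00180).

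TNFRSF10B encodes the other signalling TRAIL receptor. TNFRSF10B showed 90.3, 88.1 and 86.9 CPM in HCC1937 extract libraries, against 56.9, 55.4 and 53.2 CPM in HCC1937 controls. In MDA-MB-231, TNFRSF10B was at 130.4, 259 and 269 CPM with extract, against 252, 256 and 266 CPM in controls. TNFRSF10B had a log2 fold change of 0.68 ± 0.21 in HCC1937 (edgeR adjusted p = 0.0106) and of -0.23 ± 0.20 in MDA-MB-231 (edgeR adjusted p = 0.335), or 0.04 without E7. It rose in HCC1937, where the groups did not overlap. In MDA-MB-231, E7 lay far below E8 and E9, and the groups overlapped. With library totals alone the HCC1937 value was 0.23 (edgeR adjusted p = 0.469), and with the length and GC offset it was 0.62 (edgeR adjusted p = 0.000932). That offset gave a call for lower TNFRSF10B in MDA-MB-231, at -0.37 (edgeR adjusted p = 0.0206), and -0.18 without E7 (edgeR adjusted p = 1.84e-05). TNFRSF10D, a decoy receptor with a truncated death domain, fell in MDA-MB-231 at -0.57 ± 0.23 (edgeR adjusted p = 0.0440), or -0.34 without E7, and the call was lost without any 1 of E1, E2, E3, E26, E27, E32 and E33. In HCC1937 it rested on 25 reads with extract and 52 in controls and was at -0.89 ± 0.50 (edgeR adjusted p = 0.133). With the offset TNFRSF10D was at -0.75 in HCC1937 and -0.62 in MDA-MB-231 (edgeR adjusted p = 0.205 and 0.0111).

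The adaptors FADD and TRADD rose in both lines, TRADD not with the length and GC offset. FADD bridges FAS and the TRAIL receptors to caspase-8, and its rise was the largest of the members in MDA-MB-231 without that offset (with it, RIPK1 was higher, at 1.51). FADD had 139, 143 and 148 CPM in HCC1937 extract libraries, against 53.4, 53.9 and 51.6 CPM in HCC1937 controls. In MDA-MB-231, FADD was at 51.4, 40.3 and 40.1 CPM with extract, against 10.6, 14.00 and 8.43 CPM in controls. FADD had a log2 fold change of 1.44 ± 0.15 in HCC1937 (edgeR adjusted p = 4.49e-06) and of 2.00 ± 0.16 in MDA-MB-231 (edgeR adjusted p = 6.11e-07), or 1.89 without E7. All extract libraries exceeded all controls of their line, with E7 highest in MDA-MB-231. The length and GC offset put FADD at 0.61 and 1.34 (edgeR adjusted p = 0.000336 and 1.05e-06). RIPK1, the kinase that steers TNF receptor signalling to survival or death, rose in MDA-MB-231. RIPK1 ran at 29.7, 27.04 and 30.8 CPM in HCC1937 extract libraries, against 22.7, 23.7 and 25.7 CPM in HCC1937 controls. In MDA-MB-231, RIPK1 was at 27.6, 40.1 and 42.6 CPM with extract, against 12.5, 12.4 and 11.02 CPM in controls. RIPK1 had a log2 fold change of 0.28 ± 0.14 in HCC1937 (edgeR adjusted p = 0.0952) and of 1.62 ± 0.15 in MDA-MB-231 (edgeR adjusted p = 1.71e-06), or 1.79 without E7. The MDA-MB-231 groups were far apart, with E7 the lowest extract library, and the HCC1937 groups were close but did not overlap. By the length and GC offset RIPK1 was at 0.26 in HCC1937 and 1.51 in MDA-MB-231 (edgeR adjusted p = 0.0201 and 3.19e-08).

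TRADD had a log2 fold change of 0.95 ± 0.17 in HCC1937 (edgeR adjusted p = 0.000341) and of 0.72 ± 0.18 in MDA-MB-231 (edgeR adjusted p = 0.00428), or 0.47 without E7. TRADD, the adaptor of TNF receptors, was at 0.11 and -0.08 with the length and GC offset and passed in neither line (edgeR adjusted p = 0.322 and 0.525). CFLAR had a log2 fold change of -0.40 ± 0.12 in HCC1937 (edgeR adjusted p = 0.0101) and of 0.04 ± 0.12 in MDA-MB-231 (edgeR adjusted p = 0.769), or -0.13 without E7. CFLAR, the catalytically inactive caspase-8 relative that restrains the death receptor complex, thus fell in HCC1937, but it was higher with the length and GC offset, at 0.90 and 1.36 (edgeR adjusted p = 0.00989 and 0.000785). Its longest coding transcript has 14672 nt and its coding transcript of median length 1198 nt, and the offset from that shorter transcript gave 0.66 and 0.69.

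**Figure D3:**
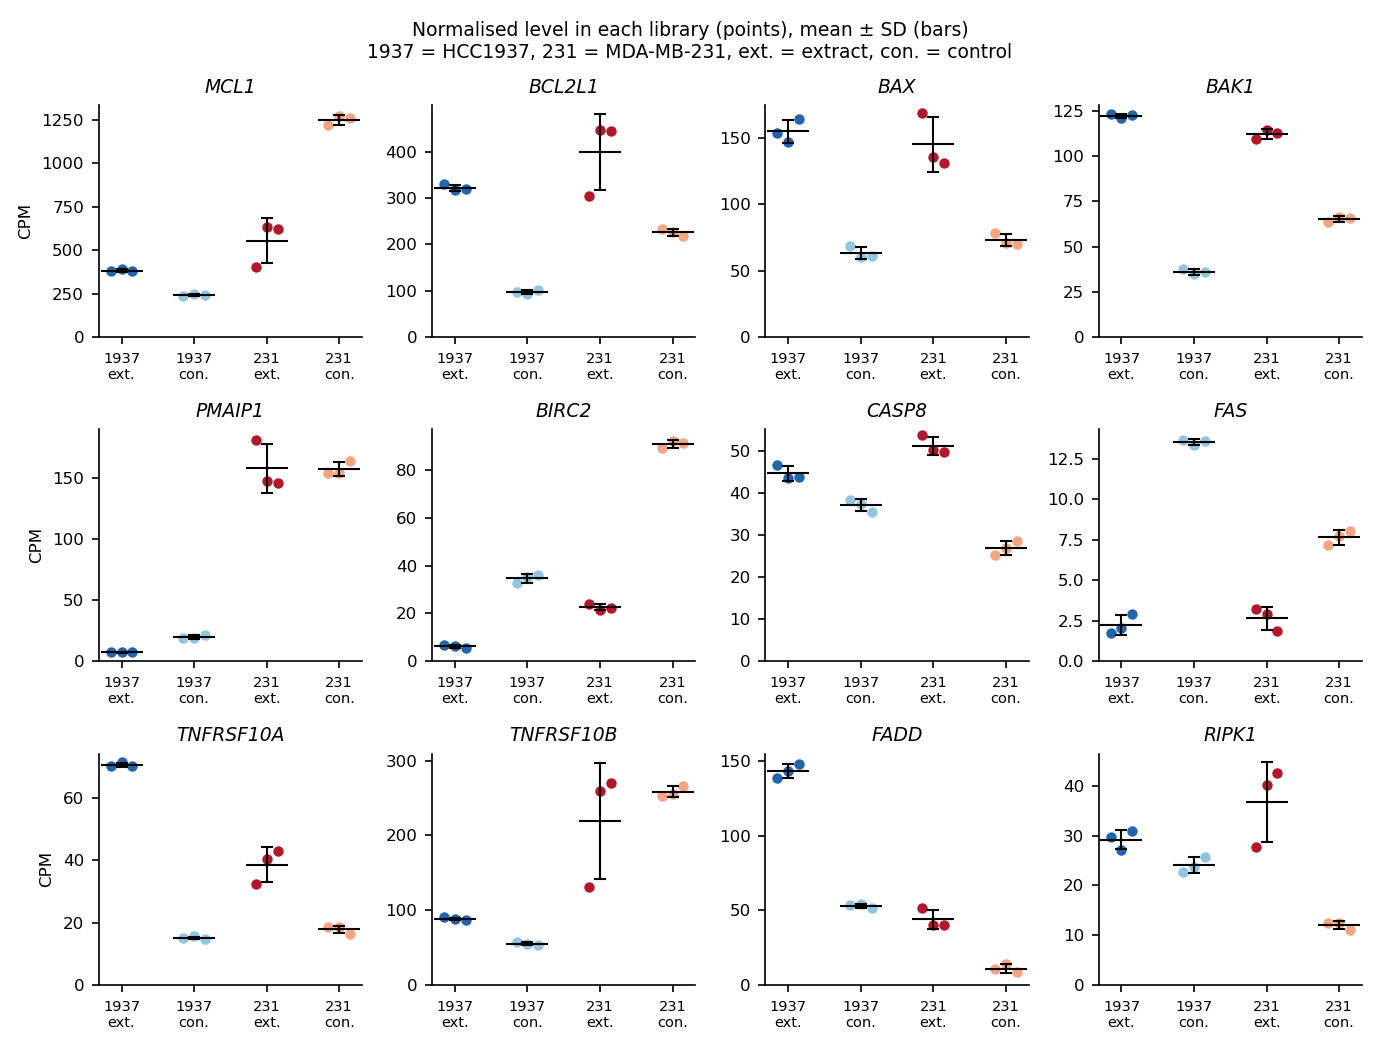
Normalised level (CPM) of 12 apoptosis regulators in each library, with the mean and SD of each group, extract left of control within each line. MCL1 lies above its controls in HCC1937 and below them in MDA-MB-231, and the 3 FAS values with extract lie below all control values in both lines.

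The extract effect differed between the lines for 13 of the 34 members with reads in both. The tested quantity is the log2 fold change in HCC1937 minus that in MDA-MB-231; 5 members were higher and 8 lower by this measure, beside 32.1% of all genes (11.5% higher and 20.6% lower). The difference was positive for MCL1, at 1.84 ± 0.20 (edgeR adjusted p = 5.08e-05), where the lines moved in opposite directions, and for TNFRSF10A, at 1.10 ± 0.15 (edgeR adjusted p = 0.000212), where both rose and HCC1937 rose more. BAK1 at 0.98 ± 0.09 (edgeR adjusted p = 2.16e-05) and BCL2L1 at 0.91 ± 0.18 (edgeR adjusted p = 0.00256) also rose more in HCC1937. TNFRSF10B was at 0.91 ± 0.29 (edgeR adjusted p = 0.0312). Negative differences were found for PMAIP1, at -1.43 ± 0.14 (edgeR adjusted p = 2.62e-05), RIPK1, at -1.34 ± 0.20 (edgeR adjusted p = 0.000500), BCL2, at -1.06 ± 0.27 (edgeR adjusted p = 0.0113), and FAS, at -1.05 ± 0.30 (edgeR adjusted p = 0.0186). Smaller ones were found for BCL2L11, at -0.89 ± 0.22 (edgeR adjusted p = 0.0101), XIAP, at -0.73 ± 0.14 (edgeR adjusted p = 0.00185), CASP8, at -0.66 ± 0.11 (edgeR adjusted p = 0.000887), and BIRC2, at -0.49 ± 0.12 (edgeR adjusted p = 0.00912). Of these, CASP8 rose less in HCC1937, RIPK1 rose in MDA-MB-231 without passing in HCC1937, FAS, XIAP and BIRC2 fell more there, and PMAIP1, BCL2 and BCL2L11 fell in HCC1937 without passing in MDA-MB-231. FADD had a difference of -0.56 ± 0.22 that did not pass (edgeR adjusted p = 0.0686). MCL1, BAK1, BCL2L11, PMAIP1, XIAP, TNFRSF10A and RIPK1 kept the call in all 21 alternatives that could give this comparison, whereas TNFRSF10B lost it without any 1 of E1, E2, E3 and the 6 HCC1937 libraries, and FAS without E8, E31 or E32. With the length and GC offset FAS was at -0.50, BIRC2 at -0.08 and CASP8 at -0.23, and none of them passed (edgeR adjusted p = 0.163, 0.552 and 0.0763). Without E7 the 13 differences kept sign and call, with values between -1.49 (RIPK1) and 1.67 (MCL1). In all, 10 members were then higher and 14 lower, beside 58% of all genes (24.7% higher and 33.3% lower).

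**Figure D4:**
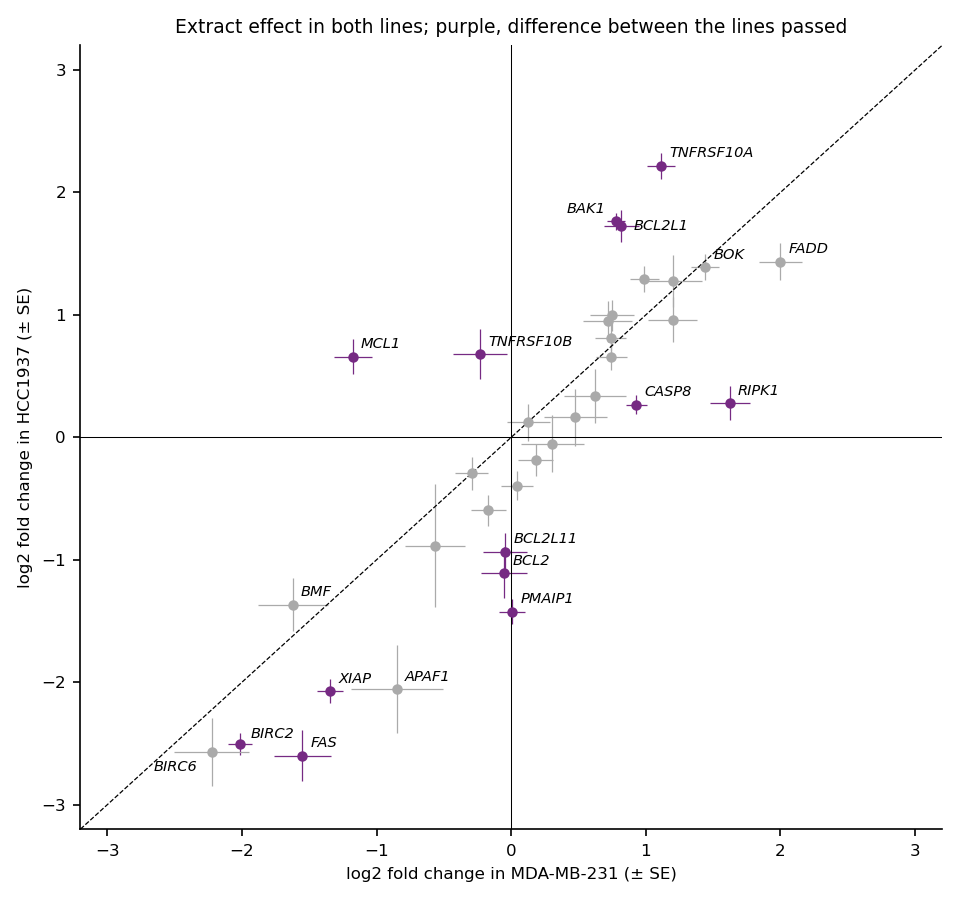
Log2 fold change, extract over control, of 34 apoptosis regulators in HCC1937 (vertical axis) against MDA-MB-231 (horizontal axis), with standard errors, and the line of equal change dashed. Purple points are the 13 members whose difference passed. MCL1 lies in the quadrant of a rise in HCC1937 (0.66) and a fall in MDA-MB-231 (-1.18), both called. TNFRSF10B also lies in that quadrant, with a value in MDA-MB-231 that was not called.

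Ratios of 2 members within a library do not depend on how libraries are scaled to each other. The pairs were chosen after earlier results were known, and the ratios are given as descriptions. The ratio of MCL1 to BCL2L1 counts was 1.15, 1.23 and 1.18 in HCC1937 extract libraries, against 2.40, 2.67 and 2.39 in HCC1937 controls. In MDA-MB-231 it was 1.33, 1.42 and 1.40 with extract, against 5.23, 5.61 and 5.78 in controls, E7 included. This ratio was lower with extract in both lines, with no overlap. BAK1 counts relative to MCL1 were 0.320 ± 0.00855 in HCC1937 extract libraries and 0.149 ± 0.0100 in HCC1937 controls, and 0.211 ± 0.0520 in MDA-MB-231 extract libraries and 0.0523 ± 4.23e-05 in MDA-MB-231 controls (SD, n = 3). Between BAK1 and BCL2L1 the ratio was 0.380 ± 0.00623 with extract and 0.370 ± 0.0127 in controls of HCC1937, and 0.290 ± 0.0611 with extract and 0.290 ± 0.0145 in controls of MDA-MB-231. Both differences of means were smaller than the larger SD of the groups compared. In MDA-MB-231, E7 was at 0.361, above all controls (0.274, 0.293 and 0.302). E8 and E9, at 0.256 and 0.254, were below all of them, so the equal means rest on E7. CFLAR relative to FADD was 0.301 ± 0.00456 with extract and 1.07 ± 0.0322 in controls of HCC1937, and 1.52 ± 0.0785 with extract and 6.13 ± 1.31 in controls of MDA-MB-231. TNFRSF10A relative to TNFRSF10B was 0.798 ± 0.0174 and 0.275 ± 0.00850 in the same HCC1937 groups, and 0.187 ± 0.0518 and 0.0692 ± 0.00637 in the same MDA-MB-231 groups. CFLAR was lower relative to FADD, and TNFRSF10A higher relative to TNFRSF10B, in extract libraries of both lines, with no overlap. DIABLO relative to XIAP was 2.52 ± 0.0783 with extract and 0.308 ± 0.0261 in controls of HCC1937, and in MDA-MB-231 12.9, 6.22 and 6.01 in E7, E8 and E9, against 1.34, 1.29 and 1.51 in controls. BAX relative to BCL2L1 was 0.480 ± 0.03 with extract and 0.649 ± 0.045 in controls of HCC1937. In MDA-MB-231 it was 0.555, 0.303 and 0.294 in E7, E8 and E9, against 0.335, 0.313 and 0.320 in controls. PMAIP1 relative to MCL1 was lower with extract in HCC1937 (means 0.0192 and 0.0815) and higher in MDA-MB-231 (0.305 and 0.126). CASP8 relative to CFLAR and CASP9 relative to APAF1 were higher with extract in both lines, without overlap. Ratios between genes of unlike length or GC content carry the same dependence on these as the fold changes above.

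**Figure D5:**
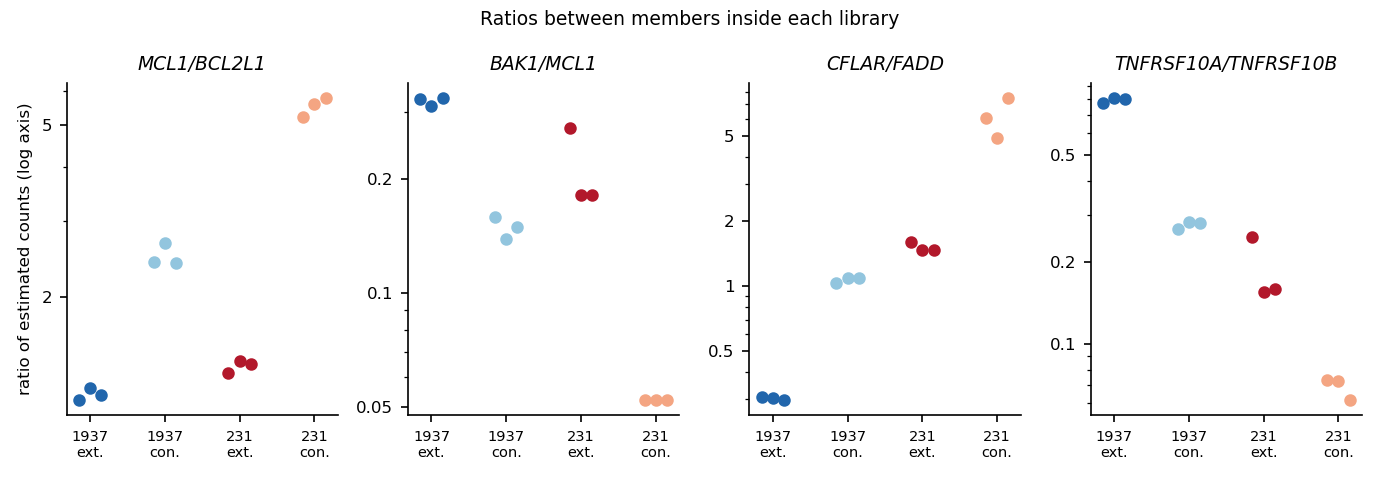
Ratios of estimated counts between pairs of apoptosis regulators inside each library (log axes), extract left of control within each line. MCL1/BCL2L1 and CFLAR/FADD lie lower, and BAK1/MCL1 and TNFRSF10A/TNFRSF10B higher, in every extract library than in every control library of the same line.

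The lines also differed without extract. In HCC1937 controls relative to MDA-MB-231 controls, 17 members were higher, 12 lower and 6 did not pass, beside 75.3% of all genes (38.7% higher and 36.7% lower). These are the same control libraries as above. FADD was higher in HCC1937, at 2.27 ± 0.16 (edgeR adjusted p = 1.21e-07), as were the BH3-only genes BIK, at 1.94 ± 0.15 (edgeR adjusted p = 2.35e-07), BMF, at 1.89 ± 0.22 (edgeR adjusted p = 1.01e-05), BID, at 1.82 ± 0.11 (edgeR adjusted p = 3.87e-08), and BCL2L11, at 1.47 ± 0.16 (edgeR adjusted p = 4.49e-06). CASP2 was at 1.85 ± 0.16 (edgeR adjusted p = 7.27e-07) and XIAP at 1.53 ± 0.10 (edgeR adjusted p = 3.80e-08). TNFRSF10D was lower in HCC1937, at 0.384, 0.693 and 0.738 CPM against 43.04, 42.8 and 37.5 CPM in MDA-MB-231, or -6.06 ± 0.32 (edgeR adjusted p = 8.90e-09) on the log2 scale. TNFRSF10B was also lower, at -2.23 ± 0.21 (edgeR adjusted p = 1.58e-06). BCL2A1 had 0 reads in HCC1937 controls and 60 in MDA-MB-231 controls, so it was at least 28.4-fold lower in HCC1937, taking 3 counts over the group as the floor. The MDA-MB-231 controls also took it past the filter on low counts, so this bound is not independent of the filter. The p53 targets PMAIP1, at -3.00 ± 0.10 (edgeR adjusted p = 3.14e-10), and BBC3, at -1.82 ± 0.13 (edgeR adjusted p = 1.09e-07), were lower in HCC1937, as were MCL1, at -2.37 ± 0.15 (edgeR adjusted p = 3.67e-08), BCL2, at -1.79 ± 0.18 (edgeR adjusted p = 2.85e-06), BCL2L1, at -1.21 ± 0.13 (edgeR adjusted p = 3.75e-06), BIRC2, at -1.39 ± 0.08 (edgeR adjusted p = 2.73e-08), and BOK, at -1.37 ± 0.11 (edgeR adjusted p = 2.75e-07). The remaining called members were BCL2L2, BAD, BIRC6, CASP4, CASP8, CASP9, CASP10, FAS, TRADD and RIPK1, higher in HCC1937 by 0.31 to 1.16 on the log2 scale, and BAK1 and DIABLO, lower at -0.86 and -0.63. BAX, CYCS, APAF1, CASP6, TNFRSF10A and CFLAR did not pass, with values between -0.37 and 0.45. The calls of BAD, BIRC6 and CASP10 were lost without a single library, for BAD E1, E3 or E27, for BIRC6 E1, and for CASP10 E1, E2, E8, E26, E27 or any HCC1937 extract library.

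Other genes of the pathway, 48 in a list that was set up with earlier results known, were also examined. Of the 41 with enough reads for a fold change in HCC1937, 14 rose and 19 fell, beside 71.8% of all genes passing, and of the 38 with enough reads for a fold change in MDA-MB-231, 12 rose and 12 fell, beside 65.8%. After the offset 15 rose and 18 fell in HCC1937 and 12 rose and 17 fell in MDA-MB-231, and without E7 15 rose and 12 fell of 40 in MDA-MB-231. All 7 of the other IAP genes and antagonists passed in both lines, with BIRC5 and HTRA2 higher and BIRC3, BIRC7, NAIP, XAF1 and SEPTIN4 lower. BIRC3, the closest relative of BIRC2, was at 2.02, 2.13 and 2.30 CPM with extract against 17.4, 19.00 and 18.1 CPM in controls of HCC1937. In MDA-MB-231 it was at 5.48, 9.21 and 7.83 CPM with extract against 136, 146 and 147 CPM in controls. BIRC3 was low in all extract libraries of both lines, without overlap. BIRC3 had a log2 fold change of -3.08 ± 0.16 in HCC1937 (edgeR adjusted p = 1.33e-08) and of -4.23 ± 0.15 in MDA-MB-231 (edgeR adjusted p = 1.67e-09), or -4.06 without E7. ROCK1 had a log2 fold change of -3.18 ± 0.18 in HCC1937 (edgeR adjusted p = 2.22e-08) and of -4.26 ± 0.19 in MDA-MB-231 (edgeR adjusted p = 6.45e-09), or -4.46 without E7. ROCK1, a kinase that caspases cleave during blebbing, also fell in both. The length and GC offset left BIRC3 at -1.04 in HCC1937 and -2.46 in MDA-MB-231 (edgeR adjusted p = 0.000143 and 1.58e-08), and ROCK1 at -1.43 and -2.74 (edgeR adjusted p = 2.13e-05 and 2.41e-07). BIRC7, a further IAP gene, had 7 reads with extract and 77 in controls of HCC1937, and 1 with extract and 25 in controls of MDA-MB-231, a ratio of 0.0382 after scaling, with an exact binomial 95% interval of 0.000930 to 0.233 for counting error only. XAF1, an antagonist of XIAP, had 0 reads with extract and 36 in controls of HCC1937, at least 10.8-fold lower. SEPTIN4, whose isoform ARTS antagonises XIAP, had 0 and 22 reads in the same groups, at least 6.58-fold lower, with 3 counts over the group as the floor. BCL2L14 had 1 read with extract and 41 in controls of HCC1937 and none in MDA-MB-231. BIRC7 and BCL2L14 passed the filter on low counts through control libraries, so their lower reads with extract are not independent of that filter.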

How the data were processed

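The deposited table holds estimated counts per gene for 12 libraries. The authors made it with FastQC 0.12.1, fastp 0.23.4, Salmon 1.10.3, DESeq2 and R 4.4.1 on GRCh38, per the submitters' processing notes. The annotation release is not given in the sources used here, nor is the authors' own test. Per the labels' protocols, messenger RNA was captured with poly-T beads, although the kit named is a stranded total RNA kit. Totals, and the counting error they leave, stand in the report.

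In these expected counts as deposited, 52.8% of the values were not whole, and they were rounded to whole numbers. A row without a gene symbol was left out. The columns carry the library names of the sample titles, which also gave the 4 groups.

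Of 19516 genes, 14133 passed filterByExpr of edgeR 4.0.16 (R 4.3.3). One model of 4 groups over all 12 libraries was fitted with TMM scaling and tested with edgeR's quasi-likelihood F test, with Benjamini-Hochberg adjustment over all genes tested and a threshold of 0.05. Standard errors, given after ± for log2 fold changes, were derived from that test, as the absolute log2 fold change divided by the square root of F. They rest on the spread shared by all groups. CPM values are counts scaled to a common library size with the TMM factors. The length and GC offset is a smooth surface of the log counts over transcript length and GC content in each library (mgcv 1.9.3, basis size 60), from the longest coding transcript in GENCODE 29, which covered 14054 genes (99.4%) and all 35 members. The test and the offset were also run on simulated data, as a check of the code only. The simulated spread was taken without the MDA-MB-231 extract libraries, and the simulated dependence on length and GC content had a simple form. The simulation therefore does not show how the offset performs on these data.

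The 22 alternatives were DESeq2 1.42.0, limma 3.58.1 voom with sample quality weights, RLE size factors, library totals as the only scaling, no filter, a minimum count of 50, each line on its own, the offset, each library left out in turn, the offset without E7 and an offset from transcripts of median length. The last 2 were added after the data had been seen.

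The members and lists were chosen with earlier results of these data known. Every member is named. Values in every library are given for members called with an absolute log2 fold change, or difference between lines, of at least 1, and for some central regulators. Of the other pathway genes, the 3 with the largest called change in each line are named.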

Additional observations from a re-analysis of the deposited data

Results flagged for a closer look

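For 13 apoptosis regulators the extract effect differed between the lines by a test of the difference itself, the log2 fold change in HCC1937 minus that in MDA-MB-231, in edgeR's quasi-likelihood model. The difference was 1.84 for MCL1, where HCC1937 was at 0.66 and MDA-MB-231 at -1.18. It was 1.10 for TNFRSF10A, 0.98 for BAK1, 0.91 for BCL2L1 and 0.91 for TNFRSF10B. It was -1.43 for PMAIP1, -1.34 for RIPK1, -1.06 for BCL2, -1.05 for FAS, -0.89 for BCL2L11, -0.73 for XIAP, -0.66 for CASP8 and -0.49 for BIRC2. Of all genes tested, 32.1% passed this test, against 13 of 34 members with reads in both lines. The lines also differed in medium and in extract concentration, so these cannot be told apart.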

How the results depend on the processing

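The members' 92 called results were recomputed in 1980 alternative values, of which 1872 kept direction and call, 92 kept only the direction and 16 reversed; 61 of the 92 kept both in every alternative. The cause of the changes below was not tested. Counts are given as higher and lower. Library totals as the only scaling put the median log2 fold change of all genes at -0.61 in HCC1937 and -0.26 in MDA-MB-231, and called 2877 genes higher in HCC1937 (4625 with TMM). For the difference between lines (5 and 8 members, 1630 and 2909 genes), voom gave 10 and 14 members and 3591 and 5026 genes, library totals 3 members and 1049 genes higher, the length and GC offset 2690 genes higher, and the offset without E7 9 members and 3890 genes higher. Leaving out 1 library gave 4 to 10 and 7 to 14 members and 1340 to 3554 and 2344 to 4780 genes, each highest without E7. For the extract in HCC1937 it gave 15 to 19 and 11 to 14 members, in MDA-MB-231 14 to 17 and 6 to 11, and between untreated lines 14 to 18 and 12 to 16. Over all members, called or not in the main fit, 34 values were counted as reversed, and their log2 fold changes follow. With the offset in HCC1937, BIK was at -0.015, CYCS at 1.04 and CFLAR at 0.90, and in MDA-MB-231 BCL2 at 0.48, XIAP at 0.40, APAF1 at 0.15 and TRADD at -0.082. With the offset and no E7 in HCC1937, BIK was at -0.054, CYCS at 1.04 and CFLAR at 0.92, and in MDA-MB-231 BCL2 at 0.38, BCL2L11 at 0.30, XIAP at 0.39, APAF1 at 0.45, CASP4 at -0.11 and TRADD at -0.18; the difference between lines was 0.56 for CYCS and 0.28 for CASP4. With the offset from transcripts of median length in HCC1937, BCL2 was at 0.36, XIAP at 0.10, CYCS at 0.74 and CFLAR at 0.66, and in MDA-MB-231 BCL2 at 1.05, XIAP at 0.64 and APAF1 at 0.15. With library totals CASP8 was at -0.19 in HCC1937, and PMAIP1 at -0.31 and CFLAR at -0.28 in MDA-MB-231. With voom in MDA-MB-231, PMAIP1 was at -0.10, CYCS at -0.15 and CFLAR at -0.14. Leaving out 1 library put CYCS at -0.15 to 0.51 and CFLAR at -0.13 to 0.13 in MDA-MB-231, and the CASP4 difference at -0.50 to 0.17, the reversed end without E7 each time. No paired analysis was possible because the groups share no replicate numbers. BCL2A1 and, in HCC1937, TNFRSF10D rest on few reads, so their changes are poorly resolved at this depth. The fit of each line on its own gives no comparison between lines.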

Other observations

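Among the other genes of the pathway, those of the death ligands, receptors and adaptors outside the members had 6 higher, 6 lower and 3 not passing of 15 tested in HCC1937, beside 71.8% of all genes passing, and 3 higher, 2 lower and 10 not passing in MDA-MB-231, beside 65.8%. The MDA-MB-231 counts were 5 higher and 2 lower of 16 without E7, and 4 higher and 6 lower with the length and GC offset, where HCC1937 had 7 higher and 6 lower. A difference between the lines in these counts was not tested. The genes below were named after their values were seen. MLKL, which carries out necroptosis, a caspase-independent form of cell death, was at 34.3, 33.8 and 28.3 CPM in HCC1937 extract libraries, against 12.0, 12.1 and 11.9 CPM in HCC1937 controls. In MDA-MB-231 it was at 30.9, 23.4 and 25.3 CPM with extract, against 36.0, 32.9 and 36.7 CPM in controls. MLKL thus rose in HCC1937, at 1.42 ± 0.12 on the log2 scale, and fell in MDA-MB-231, at -0.41 ± 0.11 (edgeR adjusted p = 4.93e-07 and 0.00729), or -0.53 without E7, and the difference passed (1.84 ± 0.16, edgeR adjusted p = 1.27e-05), or 1.97 without E7. With the length and GC offset MLKL was at 1.10 in HCC1937 and -0.80 in MDA-MB-231 (edgeR adjusted p = 6.22e-07 and 9.89e-06). RIPK3, a kinase gene of the same list, had 0 reads in both HCC1937 groups and 1 read in each MDA-MB-231 group. Necroptosis itself was not tested. TRAF2, an adaptor that binds the IAP proteins BIRC2 and BIRC3, rose by almost the same amount in both, at 1.20 ± 0.08 in HCC1937 and 1.21 ± 0.08 in MDA-MB-231 (edgeR adjusted p = 6.45e-08 and 9.74e-08), or 1.19 without E7, and at 0.53 and 0.65 with the offset. TNFRSF1A, the receptor of TNF, rose in HCC1937 at 1.36 ± 0.06 and was at 0.04 ± 0.06 in MDA-MB-231 (edgeR adjusted p = 6.07e-09 and 0.624), or 0.05 without E7, and with the offset at 0.63 in HCC1937 and, called lower, -0.51 in MDA-MB-231 (edgeR adjusted p = 2.73e-07 and 2.17e-06). TNFSF10, which encodes the ligand TRAIL, was at 1.82, 1.37 and 1.06 CPM in HCC1937 extract libraries, against 11.6, 10.9 and 13.6 CPM in HCC1937 controls, and it fell, at -3.09 ± 0.34 (edgeR adjusted p = 6.14e-06), or -2.19 with the offset. In MDA-MB-231 TNFSF10 rested on 10 reads with extract and 8 in controls. The mitophagy receptor gene BNIP3L fell in both, at -1.90 ± 0.15 in HCC1937 and -1.70 ± 0.15 in MDA-MB-231 (edgeR adjusted p = 3.80e-07 and 1.20e-06), or -1.91 in MDA-MB-231 without E7, or -0.41 and -0.66 with the length and GC offset.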
